A study of Mus musculus with 4 samples.

Results

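miR-210 is a microRNA made from 1 hairpin gene, Mir210, and is measured here through its 2 mature arms, miR-210-3p (mmu-miR-210-3p) and miR-210-5p (mmu-miR-210-5p). Both were found by name among the 1091 mature miRNAs of the small RNA sequencing tables, so the 2 members are 2 of 1091 listed miRNAs. The samples were CD4+ T cells of C57BL/6 mice, either wild-type (WT) or Cbl-b-/-. Cbl-b is a ubiquitin ligase that dampens signals of the T cell receptor (TCR). For either genotype there was 1 library of unstimulated cells, called naive by the labels, and 1 of cells stimulated for 48 h through CD3, the signalling part of the receptor, with an antibody. Each of the 4 groups thus has 1 library. The sources used here do not give the age or number of the mice, whether animals were pooled, or the allele behind the Cbl-b-/- label.

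The miRNA is best known as a target gene of hypoxia-inducible factor 1 (HIF-1), the transcription factor that cells stabilise when oxygen is low, and it is counted among the most regular miRNA responses to hypoxia. As with most miRNAs, 1 arm of the hairpin, here the 3p arm, is loaded into Argonaute as the guide that pairs with messenger RNAs, and the other arm is mostly degraded. Known targets of the 3p arm include Iscu, an iron-sulphur cluster scaffold of mitochondria, and Efna3, the ephrin-A3 ligand. In mouse CD4+ T cells miR-210 has been described as raised by TCR stimulation and as a brake on Hif1a, which encodes the oxygen-regulated subunit of HIF-1. Oxygen, HIF-1 and messenger RNAs were not measured in these libraries, so the name hypoxia miRNA rests on this background alone.

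The mature arms and the hairpin are printed here because the results turn on the amounts of the arms; they are from RefSeq on build GRCm38.p6. Capitals in the arms mark the seed, bases 2 to 8, which leads target pairing.
miR-210-3p: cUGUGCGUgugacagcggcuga
miR-210-5p: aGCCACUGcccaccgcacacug
Capitals in the hairpin mark the 5p arm and then the 3p arm, separated by a loop of 16 bases.
Mir210: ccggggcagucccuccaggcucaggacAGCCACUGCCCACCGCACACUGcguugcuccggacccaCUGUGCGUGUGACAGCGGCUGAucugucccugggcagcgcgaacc

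The hairpin lies on the minus strand of chromosome 7 at chr7:141221384-141221493 (GRCm38). The 3p arm spans chr7:141221407-141221428 and the 5p arm chr7:141221445-141221466. In the GENCODE annotation of GRCm38 it is intergenic, with 0 other genes overlapping it. Rassf7 ends 2725 bases to its left and Phrf1 begins 7290 bases to its right, both on the plus strand. In the minimum-energy fold of the hairpin, 16 of the 22 bases of the 3p arm paired with the 5p arm. Sequences were matched by name for 905 of the 1091 listed miRNAs. Apart from the arms themselves, 0 of these shared bases 2 to 8 with either arm, and 0 shared bases 2 to 7. Neither arm was among the 25 miRNAs with at least 20 reads whose counts were identical to those of another miRNA in all 4 libraries.

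The seed of the 3p arm matches few transcripts. Its complement, the 7 bases ACGCACA on the sense strand, occurred in an annotated 3′ untranslated region of 683 of 20958 protein-coding genes (3.26%). The median over the 790 distinct seeds of the listed miRNAs was 10.8%, and 105 seeds had a lower share than that of miR-210-3p. The matches in 2 known targets are shown as examples of what the guide pairs with, with the match in capitals, as DNA letters of the transcript strand on GRCm38 (Iscu at chr5:113777968-113777997 on the plus strand, Efna3 at chr3:89314665-89314694 on the minus strand).
Iscu: cacatcaaagaagctacgcaaaACGCACAc
Efna3: ctgtgaagacaggacctatgcaACGCACAg
The match lay in 2 of the 3 annotated Iscu transcripts with a 3′ untranslated region and in 1 of 2 of Efna3. These letters were in 0 of 3 such transcripts of Hif1a. A match is a description of the sequence only, and the levels of these targets were not analysed here.

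The libraries held 15436447 (WT unstimulated), 14017277 (Cbl-b-/- unstimulated), 13074598 (WT stimulated) and 11561693 (Cbl-b-/- stimulated) counted miRNA reads. Levels are given as counts per 1000000 counted miRNA reads (CPM). With 1 library per group, intervals are 95% exact intervals of counting error only, and PCR copies of a molecule are counted as separate reads, so they may be too narrow. No value has a replicate check within its group. The miRNAs chosen as T cell markers, miR-142a-5p, miR-142a-3p, miR-150-5p and miR-181a-5p, together made up 383815, 365276, 182152 and 162956 CPM in the order above. Whether they mark T cells alone was not tested, so their sum is no measure of T cell content. miR-181a-5p is also a member of the hypoxia list used below. The genotype labels were not checked, since Cblb messenger RNA was not analysed here. In bulk samples, more cells with miR-210 and more miR-210 per cell cannot be told apart.

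Both arms of miR-210 were scarce in unstimulated cells and much more abundant after stimulation, in both genotypes. The guide arm, miR-210-3p, had 265 reads in WT and 319 reads in Cbl-b-/- unstimulated cells, or 17.2 CPM (15.2 to 19.4) and 22.8 CPM (20.3 to 25.4). After stimulation it had 11625 reads in WT and 16875 in Cbl-b-/-, or 889 CPM (873 to 905) and 1460 CPM (1438 to 1482). Both stimulated libraries stood far above both unstimulated ones, and within each state the Cbl-b-/- library was the higher. The rank of miR-210-3p by count among the 1091 miRNAs was 257 without and 71 with stimulation in WT, and 245 and 61 in Cbl-b-/-. Its share of all counted reads stayed small, at 0.0889% and 0.146% in the stimulated libraries.

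The passenger arm, miR-210-5p, had 9 reads in WT and 12 in Cbl-b-/- unstimulated cells, or 0.583 CPM (0.267 to 1.11) and 0.856 CPM (0.442 to 1.495). After stimulation it had 1230 and 1554 reads, or 94.1 CPM (88.9 to 99.5) and 134 CPM (128 to 141). The order of the 4 libraries was the same as for the guide arm. For miR-210-5p the lower pair of libraries could not be told apart at this depth, since the interval of their log2 ratio ran from -0.82 to 1.98. Every other step between neighbours in the order, for either arm, had an interval of counting error that excluded 0. Read counts of different miRNAs also carry the ligation and amplification bias of the library kit, so a ratio of the arms is a ratio of reads.

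**Figure D1:**
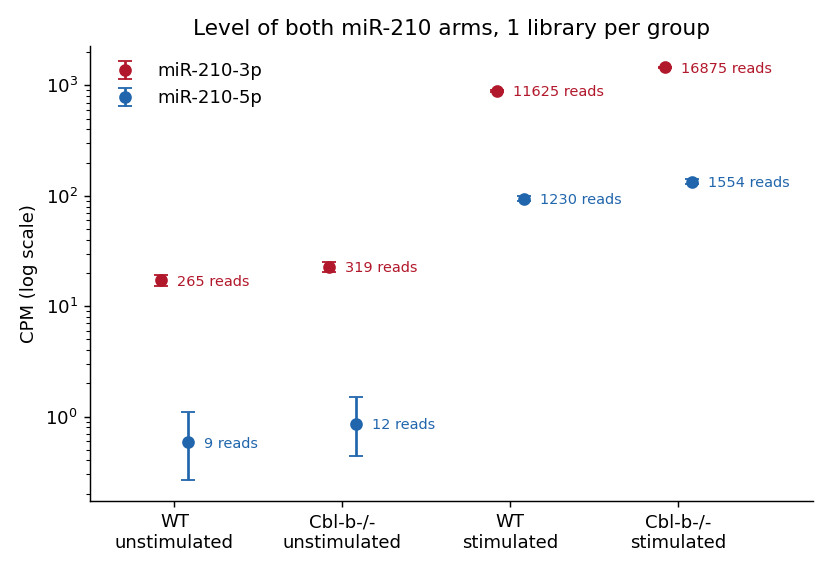
Level of each arm in CPM (log axis) in the 4 libraries, with the read count beside each point and 95% exact Poisson intervals of counting error. miR-210-3p went from 17.2 and 22.8 CPM in unstimulated to 889 and 1460 CPM in stimulated cells, and miR-210-5p from 0.583 and 0.856 to 94.1 and 134 CPM.

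Stimulated and unstimulated cells were compared to see how miR-210 goes with activation through CD3. The source names give 48 h for the stimulated cells and no culture time for the unstimulated ones. The antibody and time in culture therefore cannot be told apart, and stimulation here stands for both. To be counted as differing, a miRNA had to reach a ratio of 2-fold and a mean of 50 CPM over both libraries, and its log2 ratio had to have an exact Clopper-Pearson interval that excluded 0. miR-210-3p was 51.8-fold higher after stimulation in WT (45.9 to 58.7, log2 5.69) and 64.1-fold higher in Cbl-b-/- (57.4 to 71.9, log2 6.00). Its gain in WT was 872 CPM, and in Cbl-b-/- it was 1437 CPM. miR-210-5p was 161-fold higher in WT (84.7 to 354, log2 7.33) and 157-fold higher in Cbl-b-/- (89.6 to 305, log2 7.29). In WT its mean of 47.3 CPM was just under the level minimum, so there it was not counted as differing, while in Cbl-b-/- it was. At a level minimum of 10 CPM it passed in both genotypes. With 0.583 and 0.856 CPM in unstimulated cells it could reach either minimum through the stimulated library alone, so any call of it had to be higher. The 10 CPM minimum counted 130 of 332 miRNAs as higher in WT (39.2%) and 125 of 339 in Cbl-b-/- (36.9%).

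Changes past the limit were common among miRNAs, so the size of the ratio says more of miR-210 than the call does. In WT 78 of 220 miRNAs over the minimum (35.5%) were counted as higher and 31 (14.1%) as lower. The Cbl-b-/- comparison had 78 of 223 (35.0%) counted as higher and 33 (14.8%) as lower. TMM factors shifted all log2 ratios alike, by -0.61 for WT and -0.60 for Cbl-b-/-. The split then became 49 higher and 69 lower for WT, and 50 higher and 69 lower for Cbl-b-/-. DESeq2 size factors gave 48 higher and 70 lower for WT, and 54 higher and 67 lower for Cbl-b-/-. With TMM factors the log2 ratio of miR-210-3p was 5.08 in WT and 5.40 in Cbl-b-/-. In WT the ratio of miR-210-3p was exceeded by 1 of the 220 miRNAs, miR-6539 (log2 6.54), which rested on 21 unstimulated reads. In Cbl-b-/- cells it was exceeded by 4 of 223, and the highest of all was miR-210-5p. miR-210-3p reached the level minimum only through its stimulated libraries. From its 17.2 CPM (WT) and 22.8 CPM (Cbl-b-/-), a stimulated level at least 4.83-fold and 3.39-fold higher was needed for a mean of 50 CPM, so once it passed it had to differ.

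**Figure D2:**
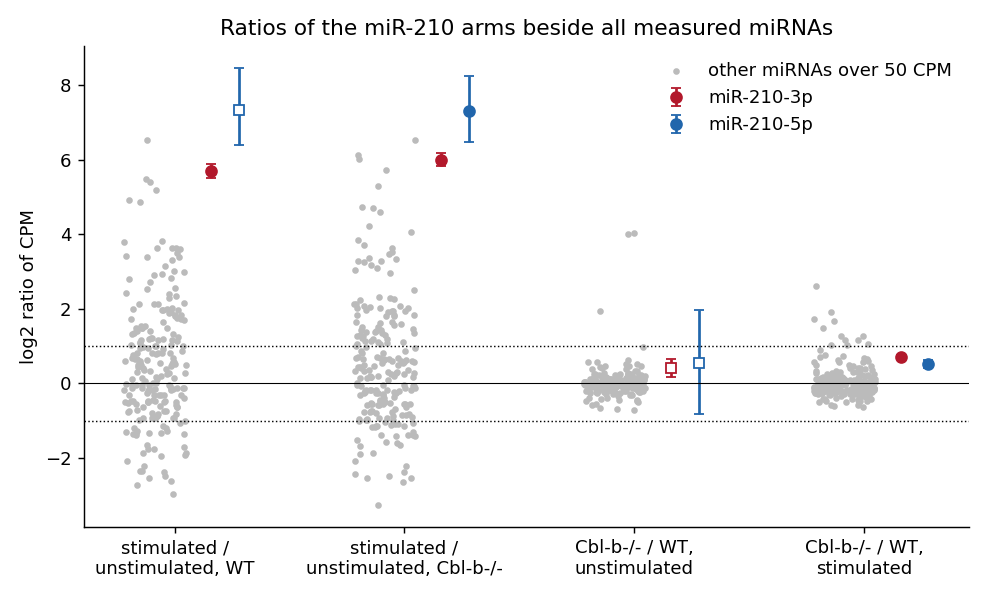
Log2 ratio of CPM in the 4 comparisons. Grey points are other miRNAs over the 50 CPM minimum, coloured points are the miR-210 arms with 95% exact intervals of counting error, open squares are arms under that minimum, and dotted lines mark 2-fold. Both arms lie at the upper end for stimulation (log2 5.69 to 7.33) and between 0 and 1 for genotype (0.41 to 0.72).

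An additive fit put the 4 libraries into 1 model with genotype and state, in which each state has 1 library of each genotype. It takes the stimulation effect to be equal in both genotypes and leaves 1 residual degree of freedom, shared over all miRNAs. In this fit both arms rose with stimulation by edgeR's quasi-likelihood test with Benjamini-Hochberg adjustment over 603 miRNAs. The log2 change was 5.32 for miR-210-3p (SE 0.16, adjusted p = 9.97e-05) and 6.77 for miR-210-5p (SE 0.19, adjusted p = 9.97e-05), and both arms were higher in 2 of 2 genotypes. The fit called 212 of the 603 miRNAs higher (35.2%) and 203 lower. Over the other fits the adjusted p of miR-210-3p ranged from 7.92e-131 with DESeq2's Wald test to 4.47e-04 with edgeR and genotype left out. No 2 libraries share a group, so these p-values do not measure a spread between replicates. With genotype and state both in the model, the error is how far the stimulation effect differed between the genotypes, shared over all miRNAs. With genotype left out, it is the spread between libraries of unlike genotype.

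Markers of other cells moved between the states too. The 5 erythroid miRNAs together stood at 1408 CPM before and 390 CPM after stimulation in WT, and at 1652 and 915 CPM in Cbl-b-/-. Among them miR-486a-5p and miR-486b-5p had nearly equal counts in every library, and miR-144 entered with both arms, so they are not separate signals. Both myeloid miR-223 arms together went from 485 to 83.4 CPM and from 413 to 69.4 CPM. The 2 arms of miR-126a, of endothelial cells and megakaryocytes, went from 119 to 334 CPM and from 71.6 to 324 CPM. The sum of 7 epithelial miRNAs went from 1082 to 562 CPM and from 1065 to 548 CPM, with miR-205-5p at 0 in both stimulated libraries. The 5 stromal miRNAs went from 166 to 45.9 CPM and from 171 to 50.9 CPM, with miR-214-3p at 0 in the WT stimulated library. The liver miRNA miR-122-5p stayed at or under 0.583 CPM, and 1 of the 3 muscle miRNAs was listed, at 0.229 CPM or less. The part of other cells in the rise of miR-210 was not tested.

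The ratio of the arms within a library does not depend on the scaling. In unstimulated cells miR-210-3p outnumbered miR-210-5p 29.4-fold in WT (15.3 to 65.1) and 26.6-fold in Cbl-b-/- (15.0 to 52.0). In stimulated cells the ratio was 9.45 in WT (8.91 to 10.0) and 10.9 in Cbl-b-/- (10.3 to 11.4). The 5p share of both arms was thus 3.28% and 3.63% without stimulation and 9.57% and 8.43% with it. The intervals of the 3p over 5p ratio of the stimulated libraries lay below those of the unstimulated libraries. From unstimulated to stimulated cells the passenger arm gained 3.12-fold on the guide arm in WT and 2.45-fold in Cbl-b-/-. The log2 ratio of 3p over 5p fell by 1.64 in WT (95% counting interval -2.60 to -0.68) and by 1.29 in Cbl-b-/- (-2.13 to -0.46). These intervals are wide because the unstimulated libraries held 9 and 12 reads of the passenger arm.

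Among other hairpins such a shift was common. Of the 92 other hairpins with at least 50 reads of each arm in every library, the less abundant arm gained on the more abundant one in 72 in WT and in 67 in Cbl-b-/-. The median log2 change of the less over the more abundant arm was 0.55 in WT and 0.56 in Cbl-b-/-. The shift of miR-210 was exceeded by 15 of the 92 in WT and by 19 in Cbl-b-/-, and by 14 in both. Among these 14, miR-669a and miR-669o have 3p arms with identical counts, so the hairpins are not all separate signals. With a minimum of 5 reads per arm and library, which is nearer to the counts of miR-210-5p, 25 and 32 of 153 hairpins exceeded the shift of miR-210. By its point values miR-210 thus lay on the higher side of a range that most hairpins with 2 measured arms shared. Its counting interval for log2 3p over 5p in Cbl-b-/- (-2.13 to -0.46) includes a shift of the median size, 0.56. In WT the interval (-2.60 to -0.68) ended close to the median size of 0.55. With so few unstimulated reads of miR-210-5p, miR-210 was not separated from a typical hairpin in Cbl-b-/-.

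**Figure D3:**
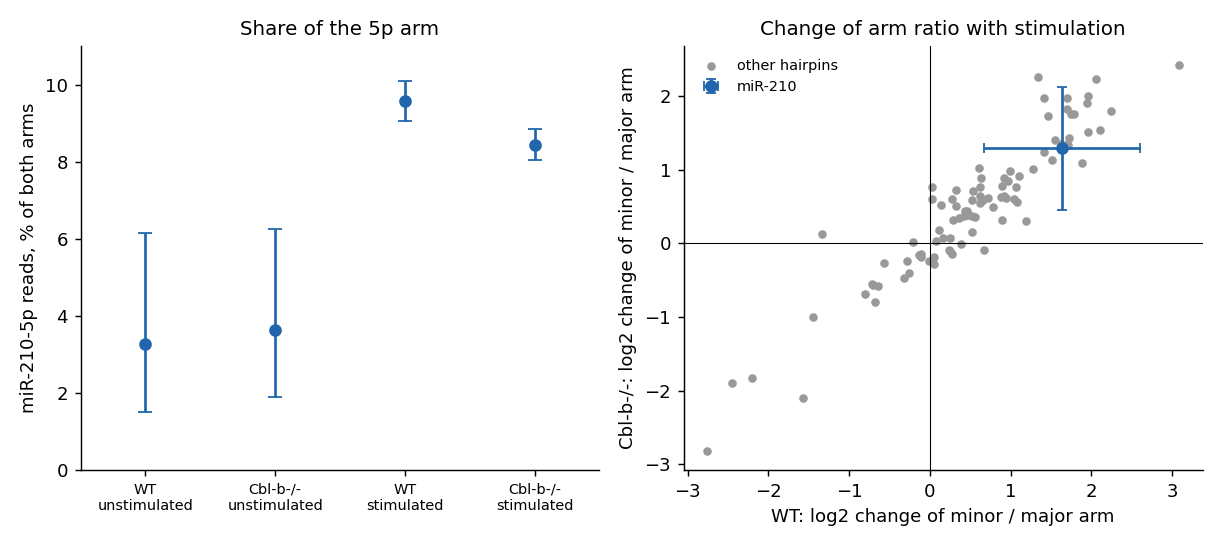
Left, share of miR-210-5p among the reads of both arms in each library (%), with 95% exact intervals of counting error; it was 3.28% and 3.63% in unstimulated and 9.57% and 8.43% in stimulated cells. Right, log2 change of the less over the more abundant arm with stimulation in WT (x axis) and Cbl-b-/- (y axis) for 92 other hairpins (grey) and miR-210 (blue, 1.64 and 1.29, with 95% counting intervals).

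The genotypes were then compared within each state. Without stimulation, the 17.2 CPM of miR-210-3p in WT and its 22.8 CPM in Cbl-b-/- made a 1.33-fold ratio (1.12 to 1.57, log2 0.41). Its mean of 19.96 CPM was under the level minimum. miR-210-5p, with 9 and 12 reads, had a log2 ratio of 0.55 (-0.82 to 1.98), which does not separate the libraries. Of 197 miRNAs over the minimum, 3 (1.52%) were counted as higher in Cbl-b-/-, and 6 (3.05%) at a limit of 1.5-fold. miR-210-5p, at a mean of 0.72 CPM, was under the minimum as well. Neither arm could therefore be counted at either limit.

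With stimulation, the 889 CPM of miR-210-3p in WT and its 1460 CPM in Cbl-b-/- made a 1.64-fold ratio (1.60 to 1.68, log2 0.72). miR-210-5p was at 94.1 and 134 CPM, a 1.43-fold ratio (1.32 to 1.54, log2 0.51). Both arms were higher in the Cbl-b-/- library, beyond counting error and short of the 2-fold limit, which 12 of 230 miRNAs (5.22%) passed as higher. The ratio of miR-210-3p was exceeded by 15 of the 230 and that of miR-210-5p by 24. At a limit of 1.5-fold miR-210-3p passed with 21 other miRNAs, 22 of 230 or 9.57%. The median log2 ratio of all 230 miRNAs was -0.05. The 5 erythroid miRNAs also stood higher in the Cbl-b-/- stimulated library, each of the 5, with sums of 390 CPM (WT) and 915 CPM (Cbl-b-/-). They are not 5 separate signals, since 2 of them are the arms of miR-144. In addition, miR-486a-5p and miR-486b-5p had nearly equal counts (2374 and 2359 reads in WT, 4696 and 4678 in Cbl-b-/-), so the sums may hold 1 signal 2 times. The sums of the myeloid (83.4 and 69.4 CPM), miR-126a (334 and 324 CPM), epithelial (562 and 548 CPM) and stromal (45.9 and 50.9 CPM) lists lay closer together. The part of the erythroid difference in that of miR-210 was not tested.

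The additive fit gave a log2 change with Cbl-b loss of 0.57 for miR-210-3p (SE 0.14) and of 0.55 for miR-210-5p (SE 0.16). Neither passed after adjustment over the 603 miRNAs by edgeR's quasi-likelihood test (adjusted p = 0.199 and 0.299, unadjusted p = 0.0103 and 0.0228). Each arm was higher in Cbl-b-/- in 2 of 2 states. The fit called 11 of 603 miRNAs higher (1.82%). Over the other fits the adjusted p ranged from 0.0794 to 1.00 for miR-210-3p and from 0.236 to 1.00 for miR-210-5p. A p that misses the threshold does not show that the genotypes are alike.

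With library sums the genotype ratio of miR-210-3p was larger with stimulation than without, by 0.31 in log2 (95% counting interval 0.07 to 0.55). Scaled by sums without the 10 most abundant miRNAs, the difference was 0.23 (-0.01 to 0.46), an interval that includes 0. The difference with library sums was below the limit of 1 in log2, which 5 of 223 miRNAs (2.24%) passed as higher. Of the 223, 34 had a larger difference. For miR-210-5p the difference was -0.02 (-1.24 to 1.20). The interaction leaves no residual degrees of freedom, so it was not tested beyond counting error. Comparing the arms, the 3p over 5p ratio of the stimulated libraries was slightly higher in Cbl-b-/- (log2 difference 0.20, 0.09 to 0.31).

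The miRNAs with a pattern over the 4 libraries most like that of miR-210-3p were sought among the 222 others whose mean over all libraries reached 50 CPM. Likeness was the root mean square difference of log2(CPM + 0.5), each miRNA centred on its own mean, for which the median over all 222 was 2.76. The nearest was miR-147-3p (0.23), at 3.43, 3.71, 125 and 260 CPM in WT unstimulated, Cbl-b-/- unstimulated, WT stimulated and Cbl-b-/- stimulated cells. Next came miR-155-3p (0.29), the passenger arm of the activation-induced miR-155, at 15.7, 17.5, 472 and 1141 CPM. Being picked for likeness, these 2 shared with miR-210-3p a low unstimulated level and a higher level in the Cbl-b-/- than in the WT stimulated library. Their genotype ratios after stimulation were larger, at log2 1.06 (0.97 to 1.14) and 1.27 (1.23 to 1.32) against 0.72 (0.68 to 0.75), and passed the 2-fold limit. miR-449c-5p (0.34), of the miR-34 and miR-449 family, stood at 3.69, 4.78, 164 and 189 CPM. miR-210-5p, the other arm of the same hairpin, was the next (0.37), and miR-6539 (0.53) was the fifth, with a lower level in the Cbl-b-/- than in the WT stimulated library (84.1 against 127 CPM). The mature sequences of miR-155-3p and miR-449c-5p, printed to show that their seeds (capitals) are unlike that of miR-210-3p above, were as follows.
miR-155-3p: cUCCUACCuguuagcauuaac
miR-449c-5p: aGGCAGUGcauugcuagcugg
The likeness describes 4 libraries, and since the 5 were picked by it, their shared pattern is no separate result. All 5 reached the mean of 50 CPM only through the stimulated libraries. With TMM factors 3 of these 5 were again among the 5 nearest, and with Pearson's r in place of the difference 1 was, namely miR-210-5p.

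**Figure D4:**
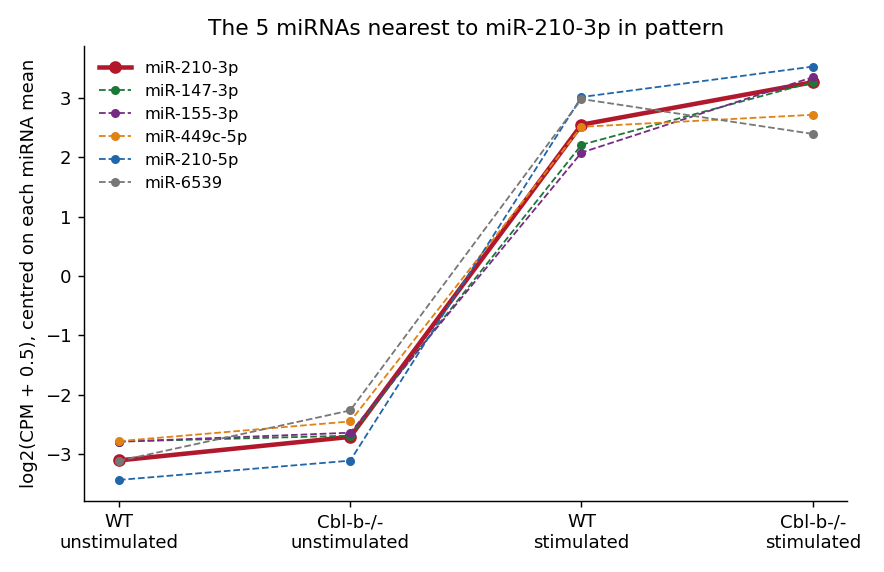
Log2(CPM + 0.5) in the 4 libraries, centred on the mean of each miRNA, for miR-210-3p (solid) and the 5 miRNAs nearest to it (dashed); lines join libraries only to guide the eye. All 6 were low in both unstimulated and high in both stimulated libraries, which follows from the choice of the 5 by likeness. After stimulation miR-449c-5p was only slightly higher in Cbl-b-/- than in WT, and miR-6539 was lower.

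A list of 18 miRNAs that includes miR-210-3p and has been described as raised by low oxygen in human cancer cell lines was set beside it. The list was chosen with earlier results of these data known, so its counts are a description. All 18 were found in the tables, and 16 passed the level minimum in WT and 17 in Cbl-b-/-. Of these, 5 were counted as higher and 4 as lower after stimulation in WT, and 3 as higher and 6 as lower in Cbl-b-/-. The share of higher members was near the share over all miRNAs in WT (35.5%) and below it in Cbl-b-/- (35.0%). The share of lower members was above that over all miRNAs, which was 14.1% in WT and 14.8% in Cbl-b-/-. Of the higher members, miR-210-3p had to differ once it passed the minimum, as above, which leaves 4 in WT and 2 in Cbl-b-/-. The median log2 ratio of the list was -0.09 in WT and -0.17 in Cbl-b-/-, against 0.40 and 0.34 over all miRNAs over the minimum. miR-210-3p stood alone at the top of the list. The next highest were miR-23b-3p in WT (log2 1.24) and miR-23a-3p in Cbl-b-/- (1.51), both of clusters with miR-27 and miR-24. miR-27a-3p came to 1.10 and 1.13, and miR-106a-5p, of a paralog cluster of miR-17, to 1.09 in WT.

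Members of the miR-181 and miR-26 families were lower after stimulation. All lower members in WT, and all but miR-125b-5p in Cbl-b-/-, were of these families, so they are not separate signals. Likewise miR-23a-3p and miR-27a-3p, among the higher members, are of 1 cluster. miR-181a-5p, which tunes the TCR threshold of thymocytes, had log2 ratios of -2.73 in WT and -2.64 in Cbl-b-/-. miR-181b-5p (-2.38 and -2.53) and miR-181c-5p (-1.70 and -1.59) of the same family were lower as well. miR-26a-5p, a miRNA of resting lymphocytes, came to -1.34 and -1.51, and miR-26b-5p to -0.97 in WT, short of the limit, and -1.02 in Cbl-b-/-. miR-125b-5p was lower in Cbl-b-/- and under the level minimum in WT. Under TMM factors, and likewise under DESeq2 size factors, miR-210-3p was the 1 member of the list counted as higher, in both genotypes, and 7 were counted as lower. Here too miR-210-3p passed the minimum only through its stimulated libraries, so its call had to be higher. Over all miRNAs these factors gave, as above, 49 higher and 69 lower (TMM) and 48 and 70 (DESeq2) in WT, and 50 and 69, and 54 and 67, in Cbl-b-/-. With Cbl-b loss, miR-125b-5p was the 1 member of 16 over the minimum counted as higher in unstimulated cells, against 1.52% over all miRNAs, and it passed the minimum only through the Cbl-b-/- library. In stimulated cells 0 of 16 were, against 5.22% over all. Among these 16 miR-210-3p had the highest log2 ratio (0.72), while miR-125b-5p, under the minimum there, stood at 4.09 (3.65 to 4.57).

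**Figure D5:**
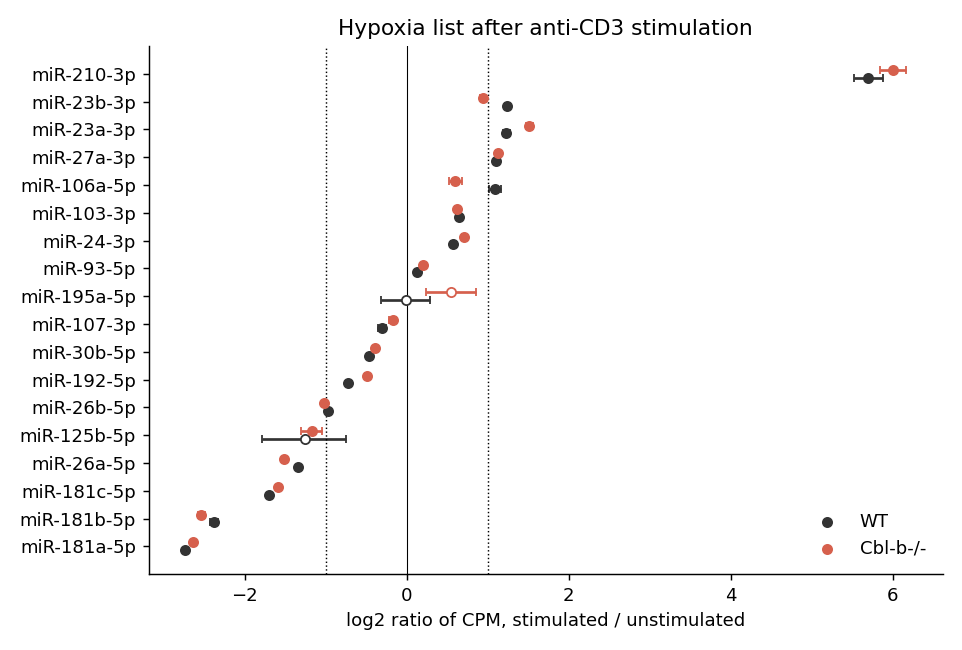
Log2 ratio of stimulated over unstimulated CPM for the 18 miRNAs of the hypoxia list in WT (black) and Cbl-b-/- (red), with 95% exact intervals of counting error; open points are under a mean of 50 CPM and dotted lines mark 2-fold. miR-210-3p lies at 5.69 and 6.00, and the other members between -2.73 and 1.51.

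A list of 14 miRNAs that TCR signals are known to induce leaves miR-210 out, although miR-210 too has been described as raised by TCR stimulation. The list was chosen with earlier results of these data known, so its counts are a description and no independent support. It holds both arms of miR-155, miR-21a, miR-132 and miR-212, so its members are not 14 separate signals. Of the 14, 12 were counted as higher after stimulation in WT and 13 in Cbl-b-/-, with medians of 3.40 and 3.55. Over all miRNAs 35.5% and 35.0% were higher, with medians of 0.40 and 0.34. In each genotype 5 of the higher members (miR-155-3p, miR-132-5p, miR-212-3p, miR-212-5p and miR-96-5p) had unstimulated levels so low that they passed the minimum only through the stimulated library and had to differ, which leaves 7 in WT and 8 in Cbl-b-/-. The ratio of miR-210-3p was above that of each of the 14 in WT, where miR-155-3p was the highest (log2 4.91, 4.73 to 5.10). In Cbl-b-/- cells miR-155-3p (6.03, 5.85 to 6.22) and miR-210-3p (6.00, 5.84 to 6.17) could not be told apart at this depth. In level, miR-210-3p stayed well under the abundant members of this list. miR-21a-5p was at 219041 and 221297 CPM in the WT and Cbl-b-/- stimulated libraries, miR-155-5p at 25337 and 51621 CPM, miR-182-5p at 16095 and 19634 CPM and miR-21a-3p at 7119 and 7855 CPM. In the stimulated Cbl-b-/- against the WT library, 4 of the 14 were counted as higher (miR-222-3p, miR-31-5p and both arms of miR-155), against 5.22% over all miRNAs. The median of the list was 0.26, against -0.05 over all miRNAs and 0.72 for miR-210-3p. Under TMM factors 2 of these 4 remained, miR-155-3p and miR-31-5p.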

How the data were processed

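Small RNA libraries of CD4+ T cells were made with a NEBNext kit, per the labels' protocols. The authors deposited 2 tables of 1091 mature miRNAs, 1 per state, with raw read counts, which are the basis of all values here. Per the file headers, the deposited tables also hold a normalized read count (a score), an unadjusted p-value, a fold change (a linear ratio, WT over Cbl-b-/-) and its log2. That the normalized count is the count divided by 1 constant per library was found from the values and is not stated by the headers. The submitters' processing notes name cutadapt 1.7.1 and the build GRCm38.p5, with no role stated; aligner, counter, miRNA release and the authors' test are not given in the sources used.

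Groups came from the source names. CPM were counts over the sum of counts of a library. Ratio intervals were exact Clopper-Pearson, levels had exact Poisson intervals, and differences of ratios, with 0.5 added to each count, had normal-approximation intervals. edgeR 4.0.16 (TMM factors, filterByExpr, glmQLFit, threshold 0.05) fitted genotype plus state; SE is the log2 change over the root of F. DESeq2 1.42.0, R 4.3.3, scipy 1.17.1 and RNAfold 2.7.2 were also used, and the procedures were tested on simulated data. Alternatives were other scalings, level and fold limits, summed arms and other fits; the authors' constants and the minimum of 5 reads per arm were added after seeing the data. The scaling alternatives kept the mean scale of the libraries. miRNAs named were both arms, the 5 nearest in pattern, the ranks next to miR-210-3p, and the 4 most abundant and the differing members of the hypoxia and TCR-induced lists. Of these members, miR-21a and miR-155 arms, miR-182-5p and the ones that decide a statement are given in the text; the rest enter the counts. The members and lists were chosen with earlier results of these data known.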

Additional observations from a re-analysis of the deposited data

How the results depend on the processing

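The direction of both arms held in every stimulation and genotype comparison under the alternatives run. Where the cause of a difference is not given by the alternative's own construction, it was not tested. For miR-210-3p after stimulation, log2 ratios were 5.08 (WT) and 5.40 (Cbl-b-/-) with TMM factors, 5.04 and 5.47 with DESeq2's, 5.95 and 6.24 with sums without miR-21a-5p, and 5.80 in Cbl-b-/- with sums without the 10 most abundant. For miR-210-5p in WT, the call depended on the level minimum: it passed at 7.33 with 10 CPM or no minimum, and at 7.59 without miR-21a-5p. In Cbl-b-/- it did not pass at 7.29 with a minimum of 200 CPM. With both arms summed the hairpin had ratios of 5.79 and 6.08, and of 0.70 for genotype after stimulation. The stimulated genotype ratio of miR-210-3p was 0.67 with TMM factors and 0.65 without the 10 most abundant, and passed a limit of 1.5-fold at 0.72. The difference of genotype ratios of miR-210-3p ranged from 0.23 to 0.42, and its interval included 0 with sums without the 10 most abundant. That of miR-210-5p ranged from -0.10 to 0.29.

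Counts over all miRNAs moved more. After stimulation, DESeq2 size factors gave 48 higher and 70 lower in WT (78 and 31 with library sums) and 54 and 67 in Cbl-b-/- (78 and 33), and TMM factors 49 and 69, and 50 and 69. Minimums of 10 CPM, 200 CPM and none gave 130, 37 and 289 higher and 49, 20 and 107 lower in WT, and 125, 37 and 278 higher and 57, 21 and 123 lower in Cbl-b-/-. Fold limits of 1.5 gave 52 and 53 lower, and of 4 gave 39 higher in both and 10 and 9 lower. Higher in Cbl-b-/- without stimulation were 11, 0 and 49 with these minimums and 6 at 1.5-fold, in place of 3; with stimulation 21, 6 and 60, and 22 and 1 at 1.5-fold and 4-fold, in place of 12. For the difference of ratios, in place of 5, DESeq2 size factors gave 11, minimums of 200 CPM and none 2 and 25, and limits of 1.5-fold and 4-fold 21 and 1. The additive genotype fit called 11 higher, against 21 with library sums, 21 with DESeq2's Wald test and 0 with state left out, where 3 had an unadjusted p under 0.05. Of the 5 miRNAs nearest in pattern, 3 were shared with TMM factors and 1 with Pearson's r. No paired analysis was possible because each group has 1 library, so groups share fewer than 2 replicate numbers; for the same reason no replicate could be left out. Depth limits miR-210-5p in unstimulated cells most, at 9 and 12 reads.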

Other observations

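In the authors' deposited table of unstimulated cells, miR-210-3p had a log2 fold change of WT over Cbl-b-/- of -0.353 with an unadjusted p of 0.143, and miR-210-5p of -0.495 with p = 0.679. In the authors' deposited table of stimulated cells the values were -0.749 with a p listed as 0 for miR-210-3p and -0.548 with p = 0.01 for miR-210-5p. The authors' deposited table called neither arm changed in either state, and the smallest absolute log2 fold change among its called miRNAs was 1.01 without and 1.001 with stimulation. These p-values of the authors' deposited table compare 2 libraries, not 2 genotypes. With the authors' library constants, miR-210-3p had log2 ratios of Cbl-b-/- over WT of 0.40 without and 0.70 with stimulation. The listed fold changes are thus not exactly the ratios of the normalized counts, and the reason is not given.

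miRNAs next to miR-210-3p in count after stimulation had come there from other levels. In WT, miR-340-5p (1115 CPM) and miR-132-3p (974 CPM) ranked just above it and miR-363-3p (884 CPM) and miR-29b-3p (836 CPM) just below. Their unstimulated levels were 2109, 98.8, 456 and 575 CPM, against 17.2 CPM of miR-210-3p. In Cbl-b-/- cells miR-23a-3p (1578 CPM) and miR-10a-5p (1545 CPM) ranked above it and let-7c-5p (1448 CPM) and miR-484 (1354 CPM) below, from unstimulated levels of 552, 5772, 2955 and 988 CPM, against 22.8 CPM. miR-210-3p was the lowest of these before stimulation in both genotypes. Since the neighbours were picked for a like stimulated level, this restates its larger ratio and is no separate result.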
